A study of Mus musculus with 14 samples.

Results

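The regions described here are enhancers that carried both H3K4me1 and H3K27ac in mouse embryonic stem cells (ESCs) and that, after retinoic acid, had an H3K4me1 peak but no H3K27ac peak. They were chosen by peak calls, that is, by measured counts of both marks in both states. They were the H3K4me1 peaks of ESCs that shared at least 1 bp with an H3K27ac peak of ESCs and with an H3K4me1 peak of retinoic acid cells, and no base with an H3K27ac peak of retinoic acid cells. There were 10083 of them among 145840 H3K4me1 peaks of ESCs (6.91%), and they made up 14.1% of the 71419 peaks that also overlapped an H3K27ac peak in ESCs. They are called H3K4me1-retaining enhancers below, after the peak calls and not after the level of the mark, which was lower in RA cells as given below. The word enhancer stands for the pair of marks alone, since no annotation of the files' genome build was used, and promoters were not set apart. For the same reason no region is tied to a gene and no DNA sequence is shown.

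Enhancers are stretches of DNA, often far from the promoters they act on, that bind transcription factors. H3K4me1 marks enhancers whether or not they are in use, while H3K27ac, an acetyl group set by p300 and CBP, marks those in use. An enhancer with H3K4me1 but without H3K27ac is often called primed. DNA methylation at CpGs (5mC) tends to be low where transcription factors are bound, and regions with little or no 5mC (UMRs) are told apart from low-methylated regions (LMRs).

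In ChIP-BS-seq, chromatin is cut into nucleosomes by micrococcal nuclease and those with a given histone mark are precipitated. Their DNA is bisulfite-converted, so 5mC values refer to the precipitated molecules, of which an unknown share may lack the mark. All cells were of the R1 mouse ESC line, which was maintained with LIF and the MEK and GSK3 inhibitors PD0325901 and CHIR99021 (2i). ESCs were grown for 2 days without 2i, retinoic acid (RA) cells for 4 days with 1 µM retinoic acid without LIF, and XEN cells (extraembryonic endoderm) for 9 days with 0.1 µM retinoic acid and Activin A at 10 ng/mL. Each mark had 1 file of counts in ESCs and 1 in RA cells. The paper says that experiments were repeated 2 times, but whether such a file holds 1 experiment or several was not established. No spread between replicates can thus be given for them. XEN cells had 2 replicates per mark, which the paper calls repeats without saying whether they came from separate cultures. Their p-values thus measure the spread between these samples, which may be technical. Cell identity was not checked here, as these files hold no transcript levels.

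The files count methylated and unmethylated CpGs in 200-bp bins. Depth was 58803653 CpG counts for H3K4me1 and 32588942 for H3K27ac in ESCs, 47177841 and 32305709 in RA cells, and between 12147115 and 31345707 in the XEN libraries. No bin with fewer than 4 counts appears in the XEN files, so thinly covered DNA is missing from them and a region with no listed bin may still hold reads. The XEN libraries went against their labels. Within RA peaks, counts in peaks of H3K4me1 alone were 10.4 times those in peaks of H3K27ac alone in the RA H3K4me1 library and 0.447 times in the RA H3K27ac library. The ratio was 7.28 and 7.24 in the libraries labelled H3K27ac of XEN cells, and 0.382 and 0.454 in those labelled H3K4me1. The names of these files also give the marks the other way round. The labels were followed, each XEN library is called by the mark on its label, and every direction between the marks in XEN cells turns round if the labels are crossed.

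The H3K4me1-retaining enhancers were wider than the usual H3K4me1 peak, but not than enhancers active in both states. A wide peak shares 1 bp with other peaks more easily, so the rule itself favours width, and its part in this was not tested. Their median width was 3151 bp (quartiles 2062 and 4950 bp), against 1851 bp for all H3K4me1 peaks of ESCs and 3910 bp for peaks with both marks in both states, and 498 of them exceeded 10 kb. In total they spanned 40.6 Mb. In the median enhancer 58.1% of the width lay under an H3K27ac peak of ESCs and 46.0% under an H3K4me1 peak of RA cells, and 5582 enhancers had less than 50% of their width under the latter. What was kept was thus often a section of the ESC domain, by peak calls. This was not counted in other classes of peaks, so it is not shown to be particular to these enhancers. A single RA H3K4me1 peak was found in 8665 enhancers and up to 9 in the others. The nearest H3K27ac peak of RA cells was 7411 bp away at the median, and 1231 enhancers (12.2%) had such a peak within 1 kb of their edge. Another H3K4me1-retaining enhancer lay within 10 kb of 2606 of them, and the longest run with such spacing held 6. On the X chromosome they were 6.03% of H3K4me1 peaks.

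At the edge of the definition, overlaps were of a few bases. Of the 3 enhancers nearest to the threshold on the inner side, chr12:56447599-56450428 (mm9, as are all coordinates here) had 1 base under an RA H3K4me1 peak and chr17:28118495-28119494 had 2, while chr15:96268115-96270586 had 2 bases under an ESC H3K27ac peak. On the outer side, chr16:4631391-4636031 and chr3:90446631-90448149 shared 1 base with an RA H3K27ac peak and chr12:77805344-77810757 shared 2. Their log2 ratios of H3K27ac counts, RA over ESC, were -0.72, -1.24 and -0.16 inside and -1.44, -0.93 and -0.74 outside, so the ranges of both sides overlapped.

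Because the peak lists of ESCs and RA cells chose these regions, the counts of both states are given as a description. H3K27ac fell from 1.14 to 0.355 CPM per kb (counts scaled to a library total of 1000000, per kb of enhancer), and H3K4me1 from 1.92 to 0.810. The H3K27ac libraries thus differed by 3.20 times and the H3K4me1 libraries by 2.36 times. Among enhancers active in both states (39270 peaks with both marks in both) these ratios were 1.01 and 1.16. Fewer cells with the mark and less of the mark per cell cannot be told apart in bulk libraries.

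Per enhancer, the median log2 ratio of H3K27ac, RA over ESC, was -1.18 (quartiles -1.82 and -0.70), taken as log2 of CPM plus 0.1. A ratio of -1 or lower was found in 6028 enhancers, 59.8%, beside 25.0% of all 145840 peaks. Over all peaks the median was -0.33, and when RA libraries were scaled to the median peak the value for these enhancers was -0.85. For H3K4me1 the median was -1.04, and 5254 enhancers (52.1%) reached -1 or lower beside 46.3% of all peaks. Over all peaks the H3K4me1 median was -0.86, and when RA libraries were scaled to the median peak, an alternative chosen after seeing the data, the value for these enhancers was -0.24. By library totals 1143 enhancers had a higher H3K4me1 CPM in RA cells than in ESCs. H3K4me1 was lower in 88.7% of the enhancers, beside 73.2% of all peaks, but in 60.5% (6102) when scaled to the median peak, and H3K27ac in 95.8%, beside 62.4%. RA H3K27ac counts were above those of ESCs in 423 enhancers, so the lack of an RA peak did not always go with a lower count.

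**Figure D1:**
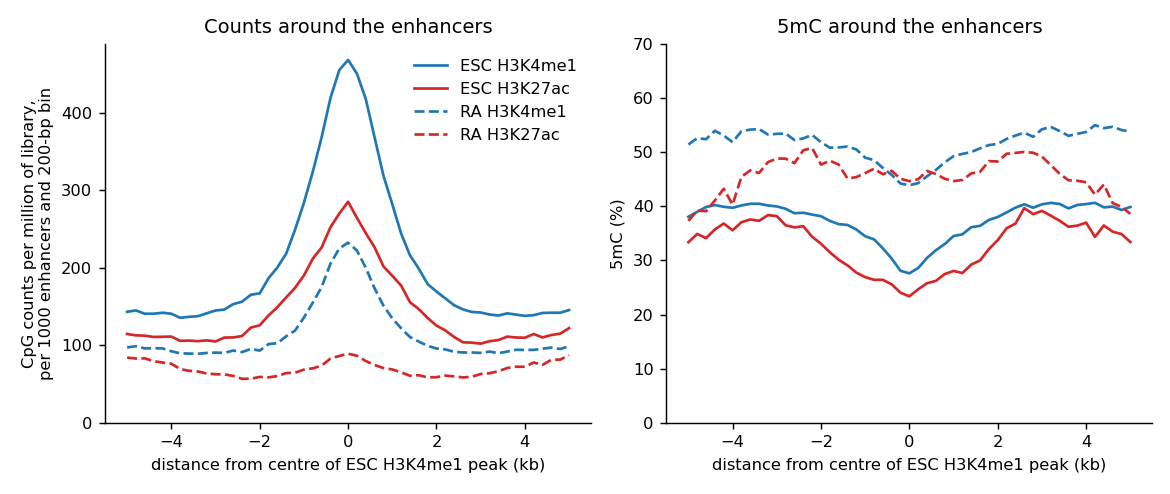
Counts (left, CPM per 1000 enhancers in each 200-bp bin) and 5mC (right, % methylated of all CpG counts) by distance in kb from the centre of the 10083 H3K4me1-retaining enhancers, for 1 library per line. Solid lines are ESCs, dashed lines RA cells, blue H3K4me1 and red H3K27ac. The RA H3K27ac counts form a small peak of 89.2 CPM at the centre, with less around 2 kb from it and nearly as much 5 kb away, while the other profiles have a tall central peak.

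The shape of the signal differed between the libraries. In the profile around the enhancer centres, counts at the centre were 3.24 times those 5 kb away for ESC H3K4me1, 2.41 times for ESC H3K27ac and 2.37 times for RA H3K4me1. For RA H3K27ac the ratio was 1.04, but a small central peak was left, with 89.2 CPM per 1000 enhancers at the centre and 59.2 and 58.9 in the bins 2000 bp to either side. In enhancers active in both states, by contrast, it was 1.40 in ESCs and 1.52 in RA cells for H3K27ac. 5mC was lowest at the centre in ESCs, at 27.6% for H3K4me1 and 23.4% for H3K27ac, compared with 39.0% and 33.4% 5 kb away. In RA cells the H3K4me1 profile still had its lowest point at the centre (43.9%, and 52.6% 5 kb away). RA H3K27ac had 44.7% at the centre, 47.7% and 48.3% at 2000 bp to either side, and 38.0% 5 kb away, so its dip was shallow and its level fell again towards the edges. The few H3K27ac counts left in these regions had, at the centre, a 5mC level within 1 percentage point of that of H3K4me1.

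5mC was higher in RA cells than in ESCs in the libraries of both marks. The states also differed in days of culture and in medium, which cannot be told apart from retinoic acid here. Pooled over all bins of the enhancers, 5mC was 32.9% (95% exact interval 32.85 to 32.94) in ESC H3K4me1 and 47.4% (47.3 to 47.5) in RA H3K4me1, a rise of 14.5 points. In H3K27ac it was 27.4% (27.3 to 27.4) in ESCs and 48.9% (48.8 to 49.0) in RA cells, a rise of 21.5 points. The RA H3K27ac counts lie where no such peak was called, so how many of them come from acetylated nucleosomes is not known. Intervals cover counting error only. They may be too narrow even for that, since CpGs of the same read share a state after mixed reads were dropped. PCR reads are not independent molecules either. Over the whole libraries 5mC went from 38.6% in ESCs to 54.8% in RA cells for H3K4me1, and from 33.0% to 38.7% for H3K27ac. The H3K4me1 rise is thus not particular to these enhancers. In enhancers active in both states the rise was 18.0 points for H3K4me1 and 10.0 for H3K27ac, so the order of the marks was the opposite one there. Peaks that had both marks in ESCs and neither peak in RA cells (17518) rose by 17.0 and 20.3 points, close to the H3K27ac value of the H3K4me1-retaining enhancers.

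Most of these enhancers gained 5mC individually. For H3K4me1, 9103 enhancers held 30 or more counts in each state, and their median went from 37.7% to 55.2%, with a median change of 15.4 points (quartiles 7.62 and 23.1). 5mC was higher in RA cells in 8258 of them (90.7%, beside 89.1% of all covered peaks). A rise over 20 points was seen in 3135 (34.4%), near the 32.0% of all 95012 covered peaks. In H3K27ac 5891 enhancers were covered, with medians of 32.4% and 54.7% and a median change of 16.4 points. 5mC was higher in RA cells in 5338 of them (90.6%, beside 80.7% of all covered peaks), and 2429 (41.2%) rose by more than 20 points, beside 25.1% of all 63057 covered peaks, 21.8% of enhancers active in both states and 42.1% of peaks that lost both marks. Coverage in RA H3K27ac was thin in these regions, at a median of 36 counts, and the 4156 enhancers with fewer than 30 counts there have no value.

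UMRs were taken as regions under 20% 5mC. In H3K4me1 of ESCs 945 of the 9103 covered enhancers (10.4%) were UMRs, beside 10.7% of all covered peaks. Of these 321 (34.0%) stayed under 20% in RA cells and 312 (33.0%) went over 30%, beside 27.2% and 37.8% of the UMRs among all peaks. By H3K27ac 1580 of 5891 (26.8%) were UMRs in ESCs, beside 31.5% of all covered peaks. Of these 676 (42.8%) stayed UMRs and 669 (42.3%) went over 30%, compared with 67.2% and 18.0% over all peaks 70.1% and 15.1% in enhancers active in both states, and 29.0% and 59.95% in peaks that lost both marks.

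**Figure D2:**
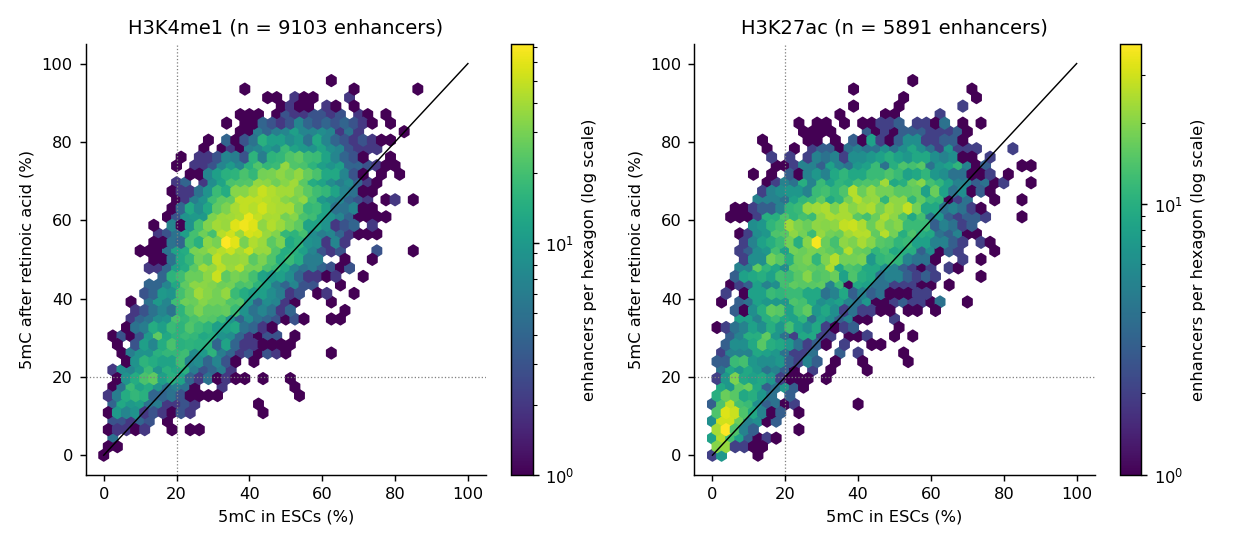
5mC (%) of single H3K4me1-retaining enhancers in ESCs (x axis) and after retinoic acid (y axis), for H3K4me1 (left, 9103 enhancers) and H3K27ac (right, 5891), each with at least 30 CpG counts in both libraries. Colour gives the number of enhancers per hexagon on a log scale, the diagonal marks no change and dotted lines mark 20%. In both panels most enhancers lie above the diagonal, and 676 enhancers fall in the lower left corner of the H3K27ac panel.

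The starting level of 5mC in ESCs ordered the enhancers in every library. The 250 covered enhancers under 10% in ESC H3K4me1 had 17.6% in RA H3K4me1 and 10.3% in RA H3K27ac. Those between 10 and 20% (712) reached 28.2% and 21.5%, those between 20 and 40% (4347) reached 47.8% and 48.0%, and those between 40 and 60% (3879) reached 61.6% and 62.0%. The median log2 ratio of H3K4me1 was -0.43 in the group under 10%, -1.26 in that between 20 and 40% and -0.49 in the 615 enhancers at 60% or more. In XEN cells the same groups kept their order. 5mC went from 25.0% in the lowest group through 42.4%, 62.2% and 69.3% in the first library labelled H3K4me1, and from 21.8% through 33.4%, 55.6% and 67.5% in the first labelled H3K27ac.

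Enhancers far from the H3K27ac peaks of RA cells were less methylated. Among the 2154 enhancers between 20 and 100 kb away, RA H3K4me1 5mC was 41.7%, and among the 448 beyond 100 kb it was 33.6%, compared with 51.4% in the 1231 within 1 kb. In ESC H3K4me1 the same groups had 30.1%, 26.3% and 35.2%, so the rise was 11.6, 7.32 and 16.1 points. Counts of RA H3K27ac were 0.408 CPM per kb in enhancers within 1 kb of such a peak and 0.268 in those beyond 100 kb. The median log2 ratio of H3K27ac was -0.89 in the nearest group and -1.62 in the farthest.

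Width and H3K27ac level in ESCs also went with 5mC. In the 2521 enhancers with the most ESC H3K27ac per kb, 5mC was 26.1% in ESC H3K4me1, 18.6% in ESC H3K27ac, 38.2% in RA H3K4me1 and 37.8% in RA H3K27ac. In the 2520 with the least it was 42.2%, 46.2%, 57.6% and 58.3%. The 2521 widest enhancers (median 6855 bp) rose by 15.7 points in H3K4me1 and the 2520 narrowest (1537 bp) by 10.0 points. These groups share libraries and are not independent of depth, since wide enhancers hold more counts.

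Within an enhancer, the section that kept its H3K4me1 peak had lower 5mC. In ESC H3K4me1 the bins under an RA H3K4me1 peak had 27.05% and the other bins of the same enhancers 39.5%, and in RA H3K4me1 they had 44.4% and 58.9%. The rise was 17.3 points in the kept section and 19.3 points outside it. Both are above the pooled rise of 14.5 points, and the share of H3K4me1 counts in the kept section went from 53.1% in ESCs to 79.2% in RA cells. The section under ESC H3K27ac peaks but outside RA H3K4me1 peaks had the larger rise, of 21.1 points in H3K4me1 and 25.0 in H3K27ac.

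5mC was compared between the marks within ESCs, a contrast that the choice of regions did not use. In ESCs 8703 enhancers had at least 30 counts in both marks, and H3K27ac was lower than H3K4me1 in 5211 of them (59.9%, beside 61.7% of all peaks tested), with a median difference of -2.28 points (quartiles -7.90 and 4.01), beside -3.33 points over all peaks tested. By Fisher's exact test, adjusted over all peaks tested, 1668 enhancers (19.2%) were lower in H3K27ac, beside 30.7% of all 61705 peaks tested, and 264 (3.03%) were higher, beside 3.78%. This compares 2 libraries, not the marks, and takes CpGs of the same read as independent, so it may call too many. Among enhancers active in both states 43.8% were lower in H3K27ac, at a median depth of 210 H3K27ac counts per peak and not 104 as here, so the shares of calls are not matched for depth. The median difference there was -5.79 points.

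After retinoic acid the pooled values had the opposite order, with 5mC 1.51 points higher in H3K27ac than in H3K4me1, whereas the difference was -5.52 points in ESCs. Per enhancer the order did not turn. Over the 5902 enhancers covered in both RA libraries, H3K27ac was lower in a majority (57.5% of them were higher in H3K4me1) and the median difference was -1.92 points. In the kept sections alone H3K27ac was lower by 1.83 points in RA cells and 5.90 in ESCs, whereas under the ESC H3K27ac peaks the difference was 0.78 points in RA cells and -5.37 in ESCs. For enhancers active in both states the median difference in RA cells was -9.51 points.

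**Figure D3:**
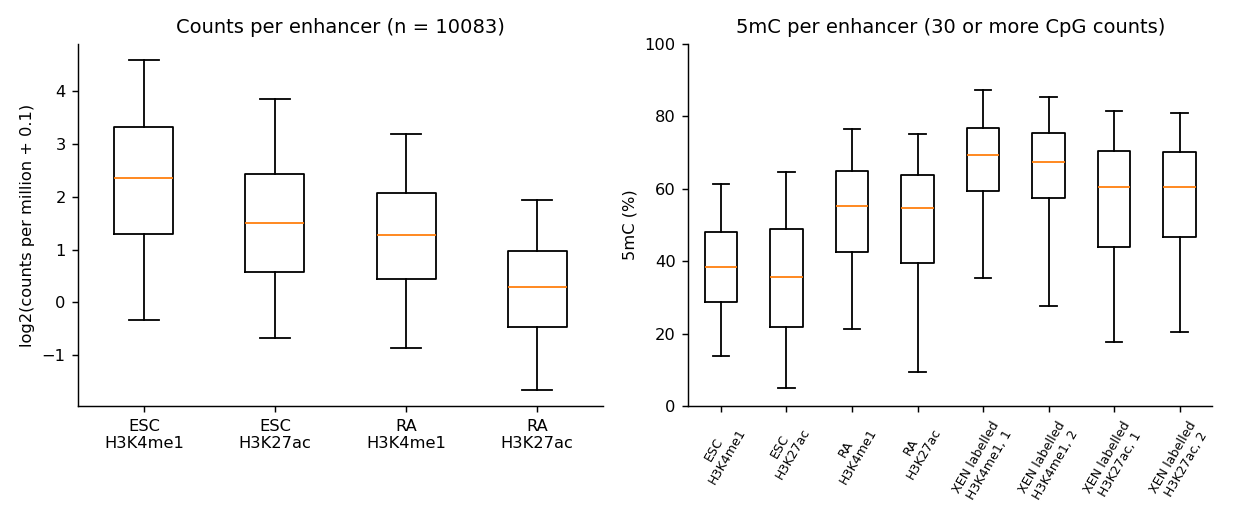
Left, log2(CPM + 0.1) of each of the 10083 H3K4me1-retaining enhancers in the libraries of ESCs and RA cells. Right, 5mC (%) of the enhancers with at least 30 CpG counts in each of the 8 libraries. Boxes give quartiles and median, whiskers the 5th and 95th percentiles. RA H3K27ac has the lowest counts, and median 5mC goes from 38.4% in ESC H3K4me1 to 55.2% in RA H3K4me1.

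The 5 enhancers with the most H3K27ac counts in ESCs were broad domains, as a ranking by counts per enhancer and not per kb favours wide ones. The first was chr11:77683895-77732085, 48.2 kb wide, with 5203 H3K27ac counts in ESCs (160 CPM) and 411 in RA cells (12.7 CPM). Its 5mC was 10.8% (95% exact interval 9.97 to 11.7) in ESC H3K27ac and 45.7% (40.8 to 50.7) in RA H3K27ac. In H3K4me1 it was 22.6% (21.8 to 23.5) in ESCs and 50.0% (47.7 to 52.2) in RA cells. The XEN libraries labelled H3K4me1 gave 63.3% and 52.1% there, and those labelled H3K27ac 58.7% and 60.8%. For both marks the intervals of ESCs and RA cells were apart, and all 4 XEN values were above both ESC values.

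The other 4 likewise had fewer H3K27ac counts and higher H3K4me1 5mC in RA cells. At chr17:56994926-57031480 H3K27ac counts went from 3996 to 417, and H3K4me1 5mC from 23.8% (22.6 to 25.0) to 46.0% (42.6 to 49.4). At chrX:55253353-55283463 the counts went from 3223 to 148 and 5mC from 13.5% (12.4 to 14.8) to 31.9% (28.7 to 35.2). At chr5:117844299-117863489 they went from 2976 to 127 and from 20.0% (18.5 to 21.5) to 38.9% (34.0 to 44.0). This domain ends 332 bp from an RA H3K27ac peak. At chr5:33857896-33887145 the counts went from 2402 to 235 and 5mC from 20.8% (19.7 to 21.9) to 39.8% (36.4 to 43.2). The X-linked domain had the least 5mC of the 5 in each of these libraries, and XEN libraries with at least 30 counts there gave 36.7% (labelled H3K4me1), 23.4% and 31.2% (labelled H3K27ac).

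The largest relative falls of H3K27ac, among 4548 enhancers with at least 100 ESC counts, were in smaller regions. At chr8:80954414-80960343 H3K27ac went from 540 counts to 7, a log2 ratio of -5.72, while H3K4me1 went from 1643 counts to 386. 5mC stayed low in that region, at 9.31% (7.95 to 10.8) in ESC H3K4me1 and 11.9% (8.86 to 15.6) in RA H3K4me1, and at 17.7% and 15.9% in the XEN libraries labelled H3K27ac. At chr17:37347413-37349450 H3K27ac went from 167 counts to 2 and H3K4me1 from 219 to 139, with H3K4me1 5mC of 14.2% (9.83 to 19.5) and 23.0% (16.3 to 30.9). At chr10:78862963-78864213 the H3K27ac counts were 231 and 4, at chr7:152048782-152063331 they were 1314 and 46, and at chr8:55157145-55162291 they were 440 and 14. H3K4me1 5mC was higher in RA cells in these 3 as well, from 34.2% to 50% on 24 RA counts in the chromosome 10 region, from 17.2% (15.4 to 19.3) to 46.9% (40.03 to 53.9) in the chromosome 7 region and from 21.3% (17.9 to 25.0) to 37.2% (26.5 to 48.9) in the last.

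The largest rises of H3K4me1 5mC, among 5432 enhancers with at least 100 counts in both libraries, were of 47 to 50 points. At chr6:85233353-85239673 5mC went from 19.0% (16.7 to 21.3) to 68.8% (60.9 to 76.0), at chr13:112725693-112731594 from 26.4% (23.7 to 29.3) to 76.3% (69.7 to 82.1), and at chr15:100503010-100507559 from 19.8% (17.0 to 22.8) to 69.5% (60.8 to 77.2). At chr8:14007862-14018982 it went from 21.9% (20.1 to 23.7) to 69.9% (64.7 to 74.8), and in the fifth, on chromosome 18, from 29.2% to 76.2%. The libraries labelled H3K27ac of XEN cells gave 74.3% and 75.2% in the chromosome 6 region and 74.6% and 77.1% in the chromosome 8 region. The first library labelled H3K4me1 gave 46.7% on 15 counts and 65.4% on 78 counts in these regions, and the second gave 67.1% on 73 counts and 72.8% on 136.

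Falls were smaller, and 358 of the 5432 enhancers (6.59%) were lower in RA cells, beside 8.21% of 52723 H3K4me1 peaks with as many counts. The largest was at chrX:55341956-55345220, from 51.5% (45.3 to 57.7) to 28.7% (21.1 to 37.3) in H3K4me1. This region lies within 100 kb of the X-linked domain described above. The next were chr5:100750559-100753203, from 51.8% (45.5 to 58.0) to 30.6% (22.1 to 40.2), chr14:27669426-27675557, from 67.4% (62.2 to 72.3) to 48.5% (39.6 to 57.4), and chr2:166414261-166421165, from 41.3% (37.8 to 44.8) to 24.4% (18.1 to 31.6). In chr16:17914956-17916460 the marks differed already in ESCs, with 33.0% (26.8 to 39.7) in H3K4me1 and 3.03% (1.52 to 5.36) in H3K27ac, and RA H3K4me1 had 16.3% (10.5 to 23.6).

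A set of 169 of the 9852 enhancers with a covered library (1.72%) was under 20% 5mC in every library that held at least 30 counts of them, beside 1.29% of all H3K4me1 peaks. Of 968 enhancers covered in all 8 libraries, 2 belonged to this set. In the 5 with the most H3K4me1 counts in ESCs, the log2 ratio of H3K4me1 was between -1.72 and -0.23. At chr3:45178893-45186530 there were 2262 H3K4me1 counts in ESCs and 1549 in RA cells, with 5mC of 2.43% (1.84 to 3.15) and 4.45% (3.48 to 5.60), while H3K27ac counts went from 822 to 223. The nearest RA H3K27ac peak was 329527 bp away. The XEN libraries labelled H3K27ac held 1080 and 1314 counts there, at 9.91% and 7.46% 5mC, and those labelled H3K4me1 held 14 and 10 counts. At chr5:58104943-58111507 H3K4me1 5mC was 1.72% in ESCs and 3.90% in RA cells, at chr14:58688140-58695089 it was 3.46% and 9.70%, at chr2:22473186-22480412 8.58% and 17.5%, and at chr2:70308359-70314180 3.17% and 11.2%. In these 5 regions the libraries labelled H3K27ac of XEN cells held between 269 and 1314 counts each, and those labelled H3K4me1 between 0 and 107.

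**Figure D4:**
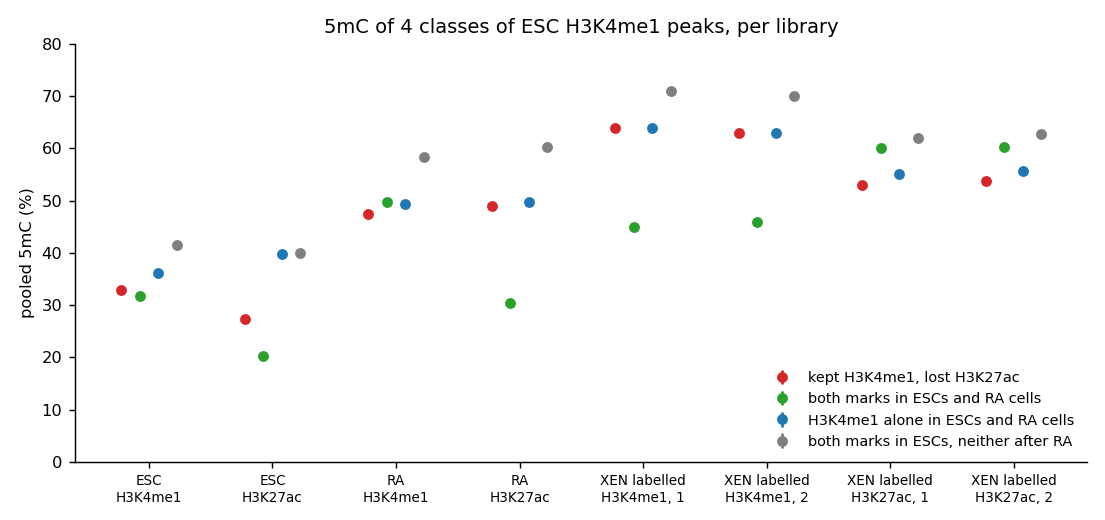
Pooled 5mC (%) of 4 classes of ESC H3K4me1 peaks in each of the 8 libraries, with 1 point per class and library and 95% exact intervals, which are smaller than the points. H3K4me1-retaining enhancers (red) lie above enhancers active in both states (green) in both ESC libraries, in RA H3K27ac and in the libraries labelled H3K4me1 of XEN cells, and below them in RA H3K4me1 and in those labelled H3K27ac, where, for the latter, the order turns over the bins listed in all 4 libraries (60.35% and 60.01% against 59.1% and 59.0%).

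The XEN libraries took no part in the choice of the regions, so they allow tests. Pooled 5mC of the H3K4me1-retaining enhancers was 63.8% and 63.0% in the 2 libraries labelled H3K4me1 (63.4% ± 0.62, SD, n = 2), and 52.9% and 53.7% in those labelled H3K27ac (53.3% ± 0.54, SD, n = 2). The groups did not overlap, with a difference of -10.1 points, and the exact two-sided permutation test gave p = 0.333, the smallest that 2 against 2 allows. The difference rested on bins that the files list for some libraries only. Over the 7354 bins listed in all 4 libraries it was -1.44 points (61.6% ± 0.30 and 60.2% ± 0.24, SD, n = 2), an alternative chosen after seeing the data. In enhancers active in both states the libraries labelled H3K27ac were 14.7 points higher, and 14.6 points higher over the bins listed in all 4 libraries. The difference over all listed bins was -8.03 points in peaks with H3K4me1 alone in both states and -8.23 points in peaks that lost both marks, near that of the H3K4me1-retaining enhancers.

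Compared with enhancers active in both states, the H3K4me1-retaining enhancers were 18.9 and 17.0 points higher in the libraries labelled H3K4me1, while the differences were -7.20 and -6.50 points in those labelled H3K27ac. The latter direction turned over the bins listed in all 4 libraries, an alternative chosen after seeing the data, where the differences were 17.0 and 17.2 points in the libraries labelled H3K4me1 and 1.21 and 1.00 points in those labelled H3K27ac. The mean over the 4 libraries was 5.56 points (SD 14.4, higher in 2 of 4 libraries, exact two-sided sign permutation p = 0.5). It was 1.10 and 1.74 points without replicate 1 or 2 of the libraries labelled H3K4me1, 9.81 and 9.58 points without replicate 1 or 2 of those labelled H3K27ac, and 9.11 points over the bins listed in all 4 libraries (higher in 4 of 4, exact p = 0.125). Against peaks that had H3K4me1 alone in both states (16945), the differences were -0.01, 0.02, -2.17 and -1.97 points (mean -1.03, exact p = 0.375), and over the bins listed in all 4 libraries the mean was -1.80 points, lower in all 4 (exact p = 0.125). Against peaks that lost both marks, the H3K4me1-retaining enhancers were lower in all 4 libraries, with differences between -9.07 and -7.15 points (mean -8.10, SD 1.08, exact p = 0.125, the smallest that 4 libraries allow), and the mean was -7.68 points over the bins listed in all 4. The section under RA H3K4me1 peaks was lower than the rest of the same enhancers in all 4 libraries as well, with a mean difference of -8.53 points (SD 0.47, exact p = 0.125). For the section under ESC H3K27ac peaks it was -5.74 points (SD 1.21, exact p = 0.125).

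**Figure D5:**
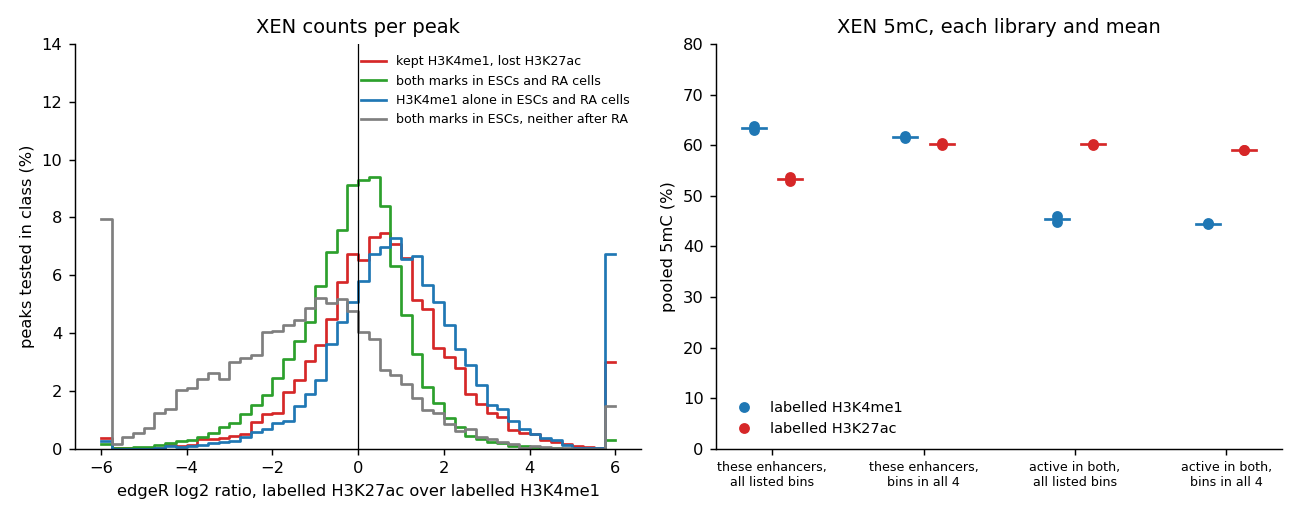
Left, share of tested peaks (%) by edgeR log2 ratio of counts, libraries labelled H3K27ac over those labelled H3K4me1 in XEN cells, for 4 classes, where the outermost bins also hold all values beyond 6 and below -6. Right, pooled 5mC (%) in each XEN library (points) with the mean of the 2 replicates (bars). H3K4me1-retaining enhancers lie on both sides of 0 with a median of 0.56 (quartiles -0.35 and 1.53). Their 5mC differs between the labels by 10.1 points over all listed bins and by 1.44 points over bins listed in all 4 libraries.

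Counts per peak were compared between the XEN marks with edgeR over all H3K4me1 peaks of ESCs, of which 94888 passed the filter on low counts. Among the 10083 H3K4me1-retaining enhancers 7977 passed. The libraries labelled H3K27ac were higher in 1654 (20.7%), beside 17.0% of all peaks tested, and lower in 331 (4.15%), beside 17.4%, at an adjusted p under 0.05. The median log2 ratio was 0.56, compared with 0.07 over all peaks tested, -0.03 for enhancers active in both states, 0.98 for peaks with H3K4me1 alone in both states and -1.26 for peaks that lost both marks. The number of calls moved when a library was left out, in fits where 1 label has a single library and the spread comes from the replicates of the other. Without replicate 1 of the libraries labelled H3K27ac 667 were higher (7.96%, beside 5.72% of all peaks) and 110 lower (1.31%, beside 9.15%), and without replicate 2 it was 742 (9.09%, beside 7.13%) and 204 (2.50%, beside 11.4%). Without replicate 2 of the libraries labelled H3K4me1 2995 were higher (34.8%, beside 24.6%). With the replicate number as a block 1078 were higher (13.5%, beside 11.4%) and 159 lower (1.99%, beside 12.3%). Over bins listed in all 4 libraries 2805 enhancers were tested, and the share of higher calls was then below that of all peaks. There 472 were higher (16.8%, beside 20.8% of all peaks tested) and 244 lower (8.70%, beside 23.1%), with a median log2 ratio of 0.14.

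The enhancers with the largest count ratios had no listed bin in 1 of the marks. At chr7:138686554-138690242 the libraries labelled H3K27ac held 303 and 413 counts and those labelled H3K4me1 held 0 and 0 (edgeR adjusted p = 0.000686). At chr11:100619312-100624927 it was 272 and 337 against 0 and 0 (edgeR adjusted p = 0.000884), and at chr3:157228851-157231817 it was 235 and 371 against 0 and 0 (edgeR adjusted p = 0.000946). 5mC in these regions was between 9.44% and 21.0% in the libraries labelled H3K27ac. In the opposite direction the libraries labelled H3K4me1 held 44 and 22 counts at chr7:4979286-4982178 (edgeR adjusted p = 0.00769), 31 and 31 at chr8:14031906-14034249 (edgeR adjusted p = 0.00558) and 21 and 42 at chr15:8585211-8586476 (edgeR adjusted p = 0.00614), with 0 and 0 in those labelled H3K27ac. In these 3 regions 5mC was between 76.2% and 93.2%. These regions passed the filter through 1 of the labels alone, where bins under 4 counts are left out of the files, so their p-values and 5mC levels are given as a description.

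Per-peak 5mC between the XEN marks could be tested in 1002 of the 10083 enhancers, those with at least 30 counts in each of the 4 libraries, and in 34419 peaks in all. The libraries labelled H3K27ac were higher in 46 (4.59%), beside 38.1% of all peaks tested, and lower in 75 (7.49%), beside 3.02% (edgeR likelihood ratio test, adjusted p under 0.05). Most peaks tested were active in both states, and the shares were 2.88% and 5.04% in peaks that lost both marks and 9.81% and 3.12% in peaks with H3K4me1 alone in both states. The median difference over these 1002 enhancers was 0.07 points, with 505 higher and 497 lower, compared with 7.69 points in 26196 enhancers active in both states. Their median width was 5782 bp, so they are the broad end of the set. Pooled over these 1002 enhancers the difference between the labels was -4.93 points. With a minimum of 20 counts 92 were higher (4.75%, beside 32.6% of all peaks tested) and 113 lower (5.83%, beside 2.79%), and with 60 it was 9 (4.43%, beside 48.4%) and 16 (7.88%, beside 3.36%). Without replicate 1 of the libraries labelled H3K4me1, 98 were higher (4.53%, beside 29.2%) and 136 lower (6.28%, beside 2.71%). Without replicate 1 of those labelled H3K27ac it was 24 (2.22%, beside 28.5%) and 43 (3.98%, beside 1.18%), and without replicate 2 it was 18 (1.79%, beside 28.4%) and 36 (3.58%, beside 1.35%).

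Single enhancers differed by up to 41.5 points. At chr5:139228591-139230616 5mC was 42.6% and 44.8% in the libraries labelled H3K27ac and 0% and 4.44% in those labelled H3K4me1 (edgeR adjusted p = 4.88e-16). This region had 16.6% in ESC H3K4me1 and 3.38% in ESC H3K27ac, and 25.4% and 5.76% in RA cells. At chr14:66894665-66906117 it was 53.7% and 58.6% against 8.11% and 33.6%, and at chrX:11576319-11583047 49.7% and 47.9% against 3.23% and 26.5%, so the replicates labelled H3K4me1 were far apart. In the other direction, chr4:126415737-126425205 had 36.9% and 30.2% in the libraries labelled H3K27ac and 77.1% and 68.8% in those labelled H3K4me1 (edgeR adjusted p = 2.15e-08). At chr6:70906784-70927486 it was 20.9% and 28.0% against 66.7% and 46.9%, and at chr4:84296585-84320458 34.6% and 44.2% against 81.2% and 61.5%.

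Across the H3K4me1-retaining enhancers, 5mC of the same regions went together between cell states. Spearman's rho over covered enhancers was 0.69 between ESC H3K4me1 and RA H3K4me1 (n = 9103), and 0.87 between the marks in ESCs (n = 8703). RA H3K4me1 had a rho of 0.81 and 0.79 with the libraries labelled H3K27ac of XEN cells (n = 5216 and 6417), and of 0.49 and 0.56 with those labelled H3K4me1 (n = 1327 and 2585). The points share their libraries, and regions are not independent replicates.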

How the data were processed

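ChIP-BS-seq of H3K4me1 and H3K27ac was analysed in ESCs and RA cells (1 file per mark) and XEN cells (2 replicates per mark). Reads had been aligned by the authors to mm9 (per the labels) with Bismark and Bowtie, and those with mixed CpG states were dropped. The deposited values are counts, without normalization, of methylated and of unmethylated CpGs in bins of 200 bp. The methylated column was taken as the first in ESC and RA files and the second in XEN files, since mitochondrial DNA then had at most 6.44% 5mC in each library. Peaks were called with HOMER, 1 list per mark and state, with local and clonal filtering off, and the deposited score was used here only to rank peaks. Counts were summed over all bins that overlap a peak, and 5mC is methylated over all counts. The depth sets the precision: intervals pooled over all of these enhancers are within 0.25 points, and those of their sections are wider in some libraries. Single enhancers with 30 counts are known only coarsely.

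Within XEN cells counts were tested with edgeR (quasi-likelihood, TMM, filterByExpr), 5mC with edgeR's likelihood ratio test on methylated and unmethylated counts, and ESC marks with Fisher's exact test, each adjusted by Benjamini-Hochberg over all peaks tested and tested on simulated data. Shares have exact 95% (Clopper-Pearson) intervals. Regions named in the text are the 5 with the most ESC H3K27ac, the 5 with the lowest H3K27ac ratio (100 or more ESC counts), the 5 with the largest rise and the 5 with the largest fall of H3K4me1 5mC (100 or more counts in both), the 5 with the most ESC H3K4me1 under 20% 5mC in all covered libraries, the 3 most extreme in XEN counts and 5mC in each direction, and the 3 on either side of the overlap threshold. The regions, classes and tests were chosen with earlier results of these data known. Alternatives were other overlaps, scores and distances, coverage minimums, pseudocounts, scalings, DESeq2, no filter, the replicate block and leaving out each XEN library. The input and H3K36me samples and the single-cell data were not used here. The tools were R 4.3.3 with edgeR 4.0.16 and DESeq2 1.42.0, and Python 3.11.15 with scipy 1.17.1, numpy 2.4.6, matplotlib 3.10.9 and pandas 2.3.3.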

Additional observations from a re-analysis of the deposited data

Results flagged for a closer look

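The order of the marks in pooled 5mC of the H3K4me1-retaining enhancers differed between ESCs and RA cells, since H3K27ac minus H3K4me1 was -5.52 points in ESCs and 1.51 points in RA cells. Each state has 1 file of counts per mark, so the difference between the states was not tested. Per enhancer, the median differences were -2.28 and -1.92 points, and in the sections under RA H3K4me1 peaks they were -5.90 and -1.83 points when pooled. In the sections under ESC H3K27ac peaks the pooled order also turned, from -5.37 to 0.78 points, while outside those peaks it was 5.61 points in ESCs and 3.55 in RA cells. No group held 4 samples, so none was examined for a sample far from the others.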

How the results depend on the processing

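The number of enhancers fell from 10083 to 2917 when each required overlap had to cover at least 50% of the H3K4me1 peak, to 6021 with a gap of at least 5 kb to any RA H3K27ac peak and to 1632 with peaks at or above the median score of their lists. Under these 3 definitions the H3K4me1 5mC rise was 14.8, 13.1 and 15.0 points, and the median log2 ratio of H3K27ac was -1.06, -1.32 and -1.54. The rise was 16.0 points over bins with 30 counts in both libraries, 15.4 as a median over enhancers, and, in alternatives chosen after seeing the data, 17.3 and 19.3 points in the kept section and outside it. The H3K27ac ratio was -0.75 with a pseudocount of 1 and -1.28 with 0.01, -0.85 when scaled to the median peak, which shifts RA values by 0.38 (for H3K4me1, -0.24 in place of -1.04, with a shift of 0.84), and -1.30 among enhancers with 30 ESC counts.

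In XEN cells the mean over libraries of the pooled difference from enhancers active in both states, which differed in sign between the labels, was between 1.10 and 9.81 points when a library was left out, 1.67 with the 5 kb gap and 9.11 over bins listed in all 4 libraries, where the sign turned in those labelled H3K27ac. The pooled difference between the labels was -10.1 points over all bins, but -2.22 in bins with 30 counts, where the libraries of both labels overlapped (exact permutation p = 1.0). Library totals in place of TMM called 2325 enhancers higher (29.1%, beside 26.1% of all peaks) and 211 lower (2.65%, beside 13.3%), and moved the share of higher calls over all peaks from 49.4% to 66.1%, and DESeq2 called 1840 higher (23.1%, beside 19.1%) and 553 lower (6.93%, beside 22.3%). Leaving out a XEN library, in fits whose spread comes from the other label's replicates since the lone library is assumed to vary like them, gave 15271 to 42305 calls of counts over all peaks, where 32696 were called with all 4, and 667 to 2995 enhancers higher and 110 to 473 lower. For 5mC it gave 18 to 98 higher and 36 to 136 lower, and minimums of 20 and 60 counts gave 92 and 9 higher and 113 and 16 lower. The replicate block called 1078 enhancers higher and 159 lower in counts, and 36 and 67 in 5mC. The numbers did not pair the samples (correlation of deviations 0.007 over 91776 peaks), so the block is an arithmetic alternative alone. With bins listed in all 4 libraries 472 enhancers were higher and 244 lower, and the share of higher calls (16.8%) was below that of all peaks (20.8%). Of 42 alternative fits of the 6 enhancers named for XEN 5mC, 41 were past the threshold in the same direction, and the 6 named for counts, which have no listed bin under 1 label, say nothing of stability. The cause of these shifts was not tested, except that a minimum of 60 counts and the bins in all 4 libraries test fewer peaks, and a minimum of 20 tests more.

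With 1 file per mark in ESCs and RA cells, no error beyond counting can be given for a change between these states. RA H3K27ac held at least 30 counts in 5927 of the 10083 enhancers, and the first library labelled H3K4me1 of XEN cells in 1332, which limits what can be said of 5mC there.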
